A study of Mus musculus with 10 samples.

Results

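The nuclear genes for subunits of the mitochondrial respiratory chain and ATP synthase were followed across 10 mouse bead arrays. Members were the genes whose annotated symbol begins with Nduf and a, b, c, s or v and a number, Uqcr, Cox4 to Cox8 or Atp5, or is Sdha, Sdhb, Sdhc or Sdhd. Each gene was read from its brightest probe by mean over the 10 arrays, and it was kept where that probe was detected (detection p-value under 0.01) on at least 1 array. Of 78 matching symbols with 118 probes, 71 genes were kept: 34 of complex I, 3 of complex II, 6 of complex III, 12 of complex IV and 16 of complex V. They stood among 11670 genes detected on at least 1 array, of 19057 genes with a probe.

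Complex I takes electrons from NADH and complex II takes them from succinate, both passing them to ubiquinone. Complex III hands them to cytochrome c, complex IV reduces oxygen, and the proton gradient built on the way drives ATP synthase, complex V. Some complex IV subunits exist as isoforms that differ between tissues, and the chain is known to be built up when precursor cells become fat cells.

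The arrays held total RNA of cells with mouse adult bone marrow mesenchymal stem cells (MSC) of strain C57BL/6J as their stated source, 1 RNA sample per array. Populations named as differentiated adipocytes, differentiated chondrocytes and differentiated osteocytes, the reprogrammed population of each of these lineages, treated osteocytes derived in vivo, and osteocytes derived in vivo had 1 array each, and undifferentiated MSC had 2. The labels used here name neither the treatment nor the reprogramming agent. Nothing in them says whether the MSC arrays came from separate animals or cultures. What the gap between them measures is thus not known, and it may not hold the spread between animals. The p-values measure only the spread between these samples. In the test over the lineage pairs this is how far the difference varied between lineages. In the tests against MSC it holds the differences between lineages and the gap between the MSC arrays. An absence of calls thus does not show that levels were alike. A single population or pair has no replicate and is described without a test. Precision is limited by how few arrays there are.

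Between 14896 and 16737 probes were detected per array. On 8 arrays the deposited intensities had 1 common mean of 538, but the means were 324 on differentiated osteocytes and 413 on reprogrammed osteocytes, so scale and osteocyte lineage cannot be told apart. Differentiated adipocytes had 14 of 16 adipocyte markers detected, and the other arrays had 7 to 9. On differentiated chondrocytes and on in vivo osteocytes all 16 macrophage markers were detected, with medians of 13.46 and 13.55 log2 units, against 3 to 6 detected and medians of 4.55 to 4.79 on the other arrays. The part of such cells in the values of those 2 arrays was not tested. In these bulk samples fewer cells of a type and less RNA per cell cannot be told apart.

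Values below are on the log2 scale of background-corrected, quantile-normalised intensity, either levels or differences, and a difference of 1 is 2-fold. Levels of different genes come from different probes and are not compared. The spread of a replicate was read from the MSC arrays, where the gap between MSC 2 and MSC 1 had a median size of 0.23 over the members, and the largest gap was 1.20 (Sdhd). Over all detected genes, 6.38% lay 2-fold or more higher and 7.4% lower in MSC 2 than in MSC 1, and among members 2 were higher, Sdhd and Atp5md, and 0 lower. Cell cycle genes differed more between these arrays, with a median of 1.67 over 18, 16 past 2-fold higher in MSC 2 and 1 lower.

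Respiratory chain genes stood highest in differentiated adipocytes. Of 71 members, 52 (73.2%) had their highest value of 10 arrays there, against 18.9% of all detected genes. Each member's level was set against its own mean over the arrays, and the median of these was 0.72 for complex I and 0.62 for complex II in differentiated adipocytes. On the other 9 arrays the median for complex I lay between -0.12 and 0.09, and that for complex II between -0.56 and 0.39. Treated in vivo osteocytes came next with 7 members highest (9.86%), and 1 member or none was highest in differentiated osteocytes, reprogrammed adipocytes and either MSC array. The lowest values were spread over 9 arrays, with 17 members lowest in differentiated osteocytes, 15 in differentiated chondrocytes and 0 in differentiated adipocytes. The share of all detected genes was computed only for highest values in differentiated adipocytes, so nothing is drawn from the other counts.

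Members differed in how far they ranged over the arrays. Among the members detected on every array the widest were Uqcrq (6.64 to 9.46), Ndufv1 (11.36 to 13.53) and Cox7b (9.04 to 11.20). Cox6a2, Cox6b2, Cox7a1 and Atp5k were below detection on some arrays, so their ranges have no measured lower end. The steadiest was Ndufs8, an iron-sulfur core subunit of complex I, at 11.56 to 12.24. Atp5g3, another gene for the rotor ring, read 14.17 to 14.92, and Cox5a, a nuclear-encoded subunit of complex IV, read 12.82 to 13.61. The small ranges thus came from complexes I, IV and V, and both Ndufs8 and Cox5a still had their highest value in differentiated adipocytes.

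**Figure D1:**
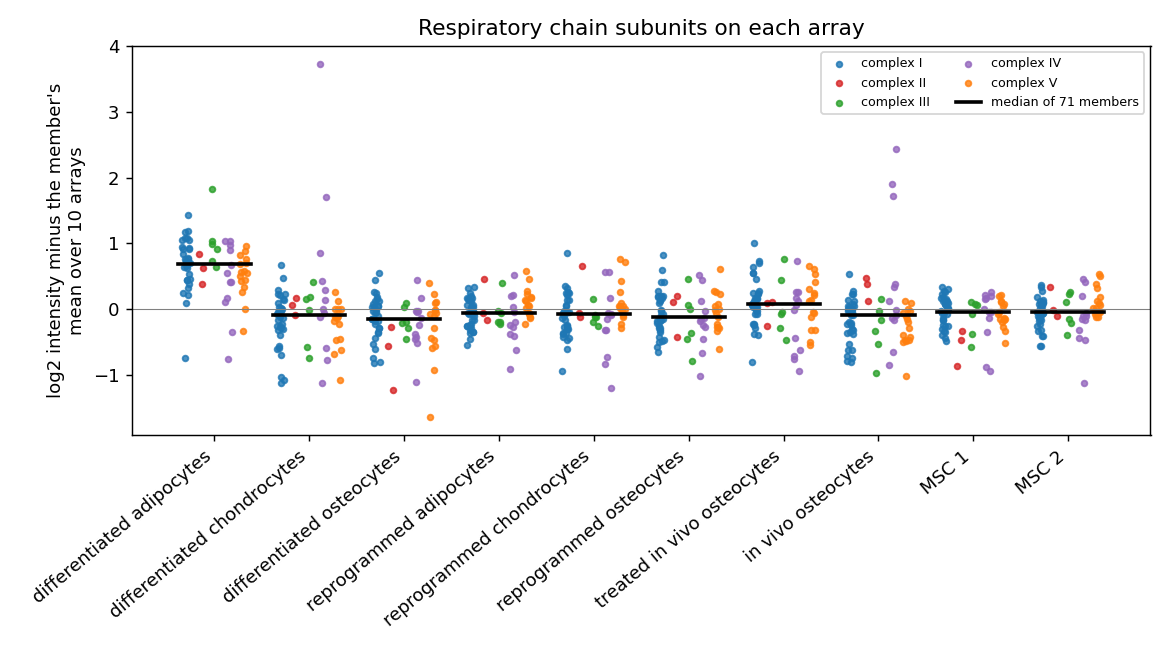
Log2 intensity of each of 71 members minus its own mean over 10 arrays (vertical axis) on each array (horizontal axis), with 1 point per gene, coloured by complex, and a bar at the median. Differentiated adipocytes stand above the other arrays, and 3 complex IV isoforms stand apart on differentiated chondrocytes and in vivo osteocytes.

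The question of how adipocyte differentiation relates to the chain was read from differentiated adipocytes against both MSC arrays. The median difference over the members was 0.71, against -0.03 over all detected genes, and 66 of 71 members lay above the MSC mean. By complex the medians were 0.77 for complex I, 0.91 for complex II, 0.94 for complex III, 0.59 for complex IV and 0.55 for complex V. Counted as 2-fold or more from each MSC array, 8 members were higher and 0 lower, against 8.57% of all detected genes higher and 8.89% lower. At 1.5-fold, 38 members were higher and 0 lower, against 15.4% and 14.2% of all detected genes. On the higher side the members' share lay near that of all genes at 2-fold and above it at 1.5-fold. On the lower side it lay below that of all genes at both. In 54 members the value lay above both MSC arrays by more than those arrays differed from each other, as it did in 24.2% of all detected genes.

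Uqcrq, a small subunit of complex III, read 9.46 in differentiated adipocytes, against 7.04 in MSC 1 and 7.89 in MSC 2, a difference of 2.00. On the remaining 7 arrays it read 6.64 to 8.07, so the adipocyte value stood alone. Uqcrc2, a core protein of complex III, read 13.00 in differentiated adipocytes, against 11.64 and 11.62 in MSC, a difference of 1.37. Uqcrc1, the other core protein, had the smallest difference in complex III, 0.62, with 12.33 in differentiated adipocytes and 11.61 and 11.79 in MSC. Uqcr10, Uqcrh and Uqcr11 lay 1.12, 0.76 and 0.75 above the MSC mean.

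In complex I, Ndufv1, which carries the flavin that accepts electrons from NADH, read 13.53 in differentiated adipocytes, against 12.08 and 12.18 in MSC, a difference of 1.41. The accessory subunit Ndufa10 read 12.94, against 11.68 and 11.64 in MSC, and Ndufb10 read 11.12, against 9.91 and 9.95. Ndufa7 read 13.58, against 12.56 and 11.82 in MSC, so its difference of 1.39 was 1.02 against MSC 1 and 1.76 against MSC 2. Ndufa1, an accessory subunit encoded on the X chromosome, lay 1.10 higher. Core subunits that carry iron-sulfur clusters were higher too, with 1.06 for Ndufs7, 0.61 for Ndufv2 and 0.38 for Ndufs8, none 2-fold from both MSC arrays. Ndufb11, another accessory subunit, was the only complex I member below the MSC mean, with 5.79 in differentiated adipocytes, against 6.14 and 6.82 in MSC.

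Complex II also makes fumarate in the tricarboxylic acid cycle. Sdhb, its iron-sulfur subunit, read 11.20 in differentiated adipocytes, against 10.10 and 10.47 in MSC. The membrane anchor Sdhc read 11.78, against 10.60 and 10.93 in MSC. Sdhd, the other anchor, read 10.74, against 9.50 and 10.70, so its difference of 0.64 was smaller than the gap between the MSC arrays. Sdha, the flavoprotein, was below detection on every array.

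In complex IV, Cox6b1, which sits where the enzyme meets cytochrome c, read 13.68 in differentiated adipocytes, against 12.71 and 12.26 in MSC. Cox6a1, the widely expressed isoform of its subunit, read 14.56, against 13.74 and 13.47. Cox4i1, a regulatory subunit, lay 0.77 higher. Members below the MSC mean were Cox7a1 (-0.70), the isoform of heart, muscle and brown fat, which was not detected in differentiated adipocytes, and Cox7a2 (-0.20). In ATP synthase, differences ran from -0.27 for Atp5g2, a gene for the rotor ring, to 0.90 for Atp5pb, a subunit of the peripheral stalk. Atp5b, the catalytic beta subunit, read 15.06 in differentiated adipocytes, against 14.54 and 14.80 in MSC.

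Other probes of the same genes gave a check within the arrays. Over 24 further detected probes of 20 members, 24 of 24 had the same sign as the brightest probe, with medians of 0.89 for the further probes and 0.82 for the brightest ones. In reprogrammed against differentiated adipocytes it was 22 of 24, and in treated against untreated in vivo osteocytes 23 of 24. In the comparisons with medians near 0 fewer had the same sign. It was 14 of 24 for differentiated chondrocytes, reprogrammed osteocytes and in vivo osteocytes against MSC, and for the osteocyte pair, where the further probes had a median of 0.41 and the brightest ones 0.0. Single small differences there depend on the probe.

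The genes around the chain were described in the same comparison. Fatty acid oxidation genes had a median of 1.37 over 16 detected genes, with 10 past 2-fold higher and 0 lower. Among them Eci1, an enoyl-CoA isomerase, lay 2.63 higher, Hadha, of the trifunctional protein, was at least 4.65-fold higher, and Cpt2, the inner carnitine palmitoyltransferase, lay 2.07 higher. Genes of cytochrome c, ubiquinone synthesis and electron transfer flavoproteins had a median of 1.19 over 12, with 6 past 2-fold, led by Coq6 (2.21), an enzyme of ubiquinone synthesis, and Cycs (2.16), cytochrome c. Tricarboxylic acid cycle genes had a median of 1.07 over 17, with 7 past 2-fold, led by Idh3a (2.76), a subunit of isocitrate dehydrogenase.

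Assembly factors of the complexes had a median of 0.60 over 40, with 7 past 2-fold, of which Coa7, a complex IV assembly factor, was at least 3.85-fold higher. Mitochondrial ribosomal proteins had 0.51 over 74 with 5 past 2-fold, and import genes 0.42 over 21 with 1 past 2-fold. Glycolysis genes had a median of -0.76 over 13, with 2 past 2-fold lower, Hk1 (-1.66), hexokinase, and Pfkp (-1.30), a phosphofructokinase. The glycolysis median was -0.17 against MSC 1 and -1.28 against MSC 2, and MSC 2 itself lay 0.89 above MSC 1, more than the adipocyte difference. Against the same arrays the members had 0.71 and 0.66, and import genes had 0.78 and 0.21. Adipocyte markers had a median of 3.52 over 15, with 13 past 2-fold higher. Genes of the cell cycle had a median of -3.33 over 18, with 15 past 2-fold lower. It was -2.51 against MSC 1 and -4.16 against MSC 2. These genes had -3.21 in differentiated chondrocytes, where the members' median was -0.04 and all 16 macrophage markers were detected. The part of cell division in the members' values was not tested.

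Of 19 detected regulators of mitochondrial gene expression, 6 were past 2-fold higher and 0 lower, and 4 lay below the MSC mean. Ppargc1b, a coactivator of mitochondrial genes, read 9.53 in differentiated adipocytes and was not detected in MSC (4.65 and 4.69), a difference of at least 16-fold. It was also detected on differentiated chondrocytes, at 7.01, and on in vivo osteocytes, at 6.5, the arrays with macrophage markers, and on no others. Nrip1, a corepressor of oxidative genes, was at least 3.93-fold higher. Pparg, the fat cell receptor, Tfb1m, Mterf4 and Mterf3, factors of mitochondrial transcription and translation, lay 1.53, 1.41, 1.17 and 1.14 higher. Nrf1, a factor that binds many respiratory gene promoters, read 8.92, against 8.74 and 8.96 in MSC, so its adipocyte value lay between the MSC values. Lowest against MSC was Yy1, with 4.72 in differentiated adipocytes and 5.58 and 5.87 in MSC, from a dim probe detected on 3 arrays only. The ETS factor Gabpa read 6.66 in differentiated adipocytes, against 7.32 and 7.68 in MSC. Ppargc1a was not detected on any array.

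**Figure D2:**
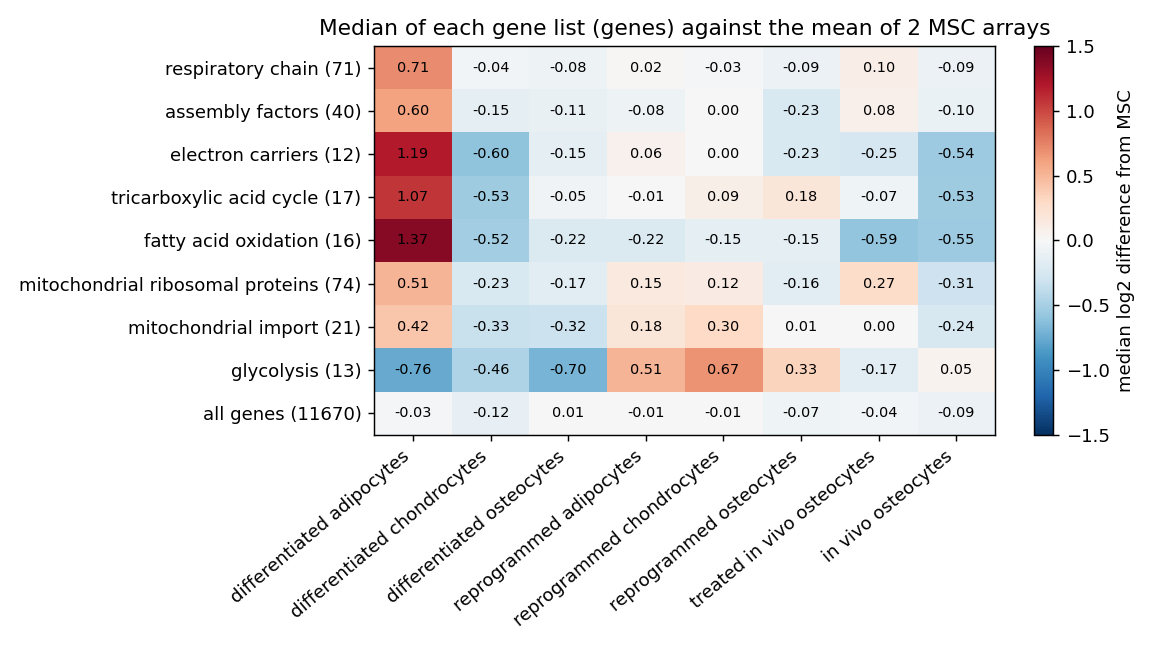
Median log2 difference from the mean of 2 MSC arrays (colour and number) for each gene list (rows, detected genes in brackets) in each of 8 populations (columns). The respiratory chain has 0.71 in differentiated adipocytes and -0.09 to 0.10 in the other populations, and all populations share the MSC arrays.

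The members' promoters were searched for motifs of factors known from respiratory genes. Because the motifs were chosen for that, a higher share in members than in all promoters says nothing about the adipocyte values. RefSeq windows (GRCm38.p6) from 250 bases before to 50 after the start were at hand for 60 members. The NRF1 motif (GCGCA, any base, then GCGC) was in 14 of them (23.3%), against 6.6% of 17491 protein-coding promoters. The ETS motif CCGGAAG was in 15 (25.0%, against 11.9%), the oestrogen-related receptor motif AAGGTCA in 7 (11.7%, against 4.08%) and the YY1 motif AAGATGGCG in 6 (10.0%, against 1.94%). Both strands were read, and no motif contains another. Median GC content was 57.8% in members' windows and 56.3% in all. Members with at least 1 of the 4 motifs (31) had a median adipocyte difference of 0.71 and those with none (29) had 0.67. A match is a string of letters, not a shown binding site, and no match says nothing about a factor. These 4 windows show a promoter with 3 motifs, 1 with the ETS motif, 1 with the YY1 motif at the end of the window, and that of the isoform gene Cox7a1 with none, and the capitals mark the motifs on either strand.
Atp5k (chr5:108434350-108434649, minus strand): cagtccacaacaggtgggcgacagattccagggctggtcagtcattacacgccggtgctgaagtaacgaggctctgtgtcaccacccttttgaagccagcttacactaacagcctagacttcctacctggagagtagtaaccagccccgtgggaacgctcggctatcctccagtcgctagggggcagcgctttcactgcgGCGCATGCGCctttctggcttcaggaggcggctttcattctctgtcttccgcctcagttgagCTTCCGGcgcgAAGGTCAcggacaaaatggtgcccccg
Cox6b1 (chr7:30626065-30626364, minus strand): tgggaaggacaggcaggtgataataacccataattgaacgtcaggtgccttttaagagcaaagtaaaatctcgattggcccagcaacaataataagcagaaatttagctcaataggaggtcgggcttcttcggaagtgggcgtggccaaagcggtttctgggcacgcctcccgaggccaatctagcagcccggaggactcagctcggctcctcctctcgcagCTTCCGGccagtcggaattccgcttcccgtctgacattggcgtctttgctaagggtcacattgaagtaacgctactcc
Ndufs7 (chr10:80249199-80249498, plus strand): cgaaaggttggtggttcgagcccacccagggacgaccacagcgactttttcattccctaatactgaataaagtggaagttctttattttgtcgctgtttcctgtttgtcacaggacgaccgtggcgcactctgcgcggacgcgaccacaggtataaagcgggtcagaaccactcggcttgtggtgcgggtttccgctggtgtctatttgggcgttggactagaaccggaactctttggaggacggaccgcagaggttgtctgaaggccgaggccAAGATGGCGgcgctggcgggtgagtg
Cox7a1 (chr7:30183921-30184220, plus strand): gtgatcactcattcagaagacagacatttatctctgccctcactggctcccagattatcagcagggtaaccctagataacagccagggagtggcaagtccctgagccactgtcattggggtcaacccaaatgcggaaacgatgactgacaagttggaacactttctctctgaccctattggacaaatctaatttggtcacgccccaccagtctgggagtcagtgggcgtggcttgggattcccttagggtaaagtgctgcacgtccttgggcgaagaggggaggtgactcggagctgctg
The first 3 belong to genes that lay 0.88, 1.19 and 1.06 above the MSC mean in differentiated adipocytes. Cox7a1, not detected there, lay 0.70 below it (-0.70). The windows were picked by these values. The first 3 are from the members with a motif that stood highest in their complex, and Cox7a1 was the lowest of all members. Ndufv1, with no motif, lay 1.41 higher, and Atp5g2, with an NRF1 motif, had -0.27. The 4 windows thus say nothing about how motifs relate to levels.

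Reprogrammed adipocytes lacked this excess. Against differentiated adipocytes the median over the members was -0.69, against 0.00 over all detected genes, and 64 of 71 members lay lower. At 2-fold, 16 members were lower and 0 higher, against 15.1% and 14.9% of all detected genes. At 1.5-fold, 43 were lower and 2 higher, against 24.2% and 23.3%. By complex the medians were -0.73 for complex I, -0.80 for complex II, -1.08 for complex III, -0.81 for complex IV and -0.52 for complex V.

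Uqcrq read 7.42 in reprogrammed adipocytes, against 9.46 in differentiated adipocytes, a difference of -2.03. Ndufa7 read 11.84, against 13.58 in differentiated adipocytes, and Ndufv1 read 12.05, against 13.53. Cox6b1 read 12.33, against 13.68. These 4 genes come from complexes I, III and IV, and each value in reprogrammed adipocytes lay within 0.16 of the MSC mean or, for Ndufa7, 0.35 below it (-0.35). The other members past 2-fold lower were Ndufa10, Ndufs5-ps, Ndufs7, Uqcr10, Uqcrc2, Ndufs6, Ndufa1, Ndufc1, Ndufv3, Ndufb10 and Cox6a1, with differences from -1.34 to -1.0, and Cox6a2, which was at least 2.07-fold lower. The Ndufs5-ps probe is annotated to a near-identical copy of Ndufs5, so its value may come from either gene. At the other end Ndufb11 lay 0.77 higher. Cox7a1 lay 0.72 higher, but it was not detected in differentiated adipocytes, so this difference has no measured size.

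Against MSC, reprogrammed adipocytes had a median of 0.02 over the members, with a range from -0.40 for Ndufa13, an accessory subunit of complex I, to 0.72 for Sdhd. The ends of the other complexes were Uqcr11 (-0.19) and Uqcrc1 (0.38) in complex III, Cox6c (-0.33) and Cox5a (0.30) in complex IV, and Atp5e (-0.23) and Atp5k (0.50) in complex V. No member was past 1.5-fold from both MSC arrays, against 1.64% of all detected genes higher and 3.21% lower. This comparison and that of differentiated adipocytes share the MSC arrays. In the same pair fatty acid oxidation genes had a median of -1.60, with 15 of 16 past 2-fold lower, and glycolysis genes had 1.36, with 9 of 13 past 2-fold higher. Cell cycle genes had a median of 4.33 in this pair, with 18 of 18 past 2-fold higher. Among regulators, Ppargc1b was at least 15.7-fold and Nrip1 at least 3.86-fold lower in reprogrammed adipocytes. Mterf4, Tfb1m, Mterf3 and Pparg had -1.33, -1.28, -1.21 and -1.17, and Yy1, a factor with sites in respiratory genes, was at least 1.22-fold higher. The part of cell division in the members' difference was not tested.

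**Figure D3:**
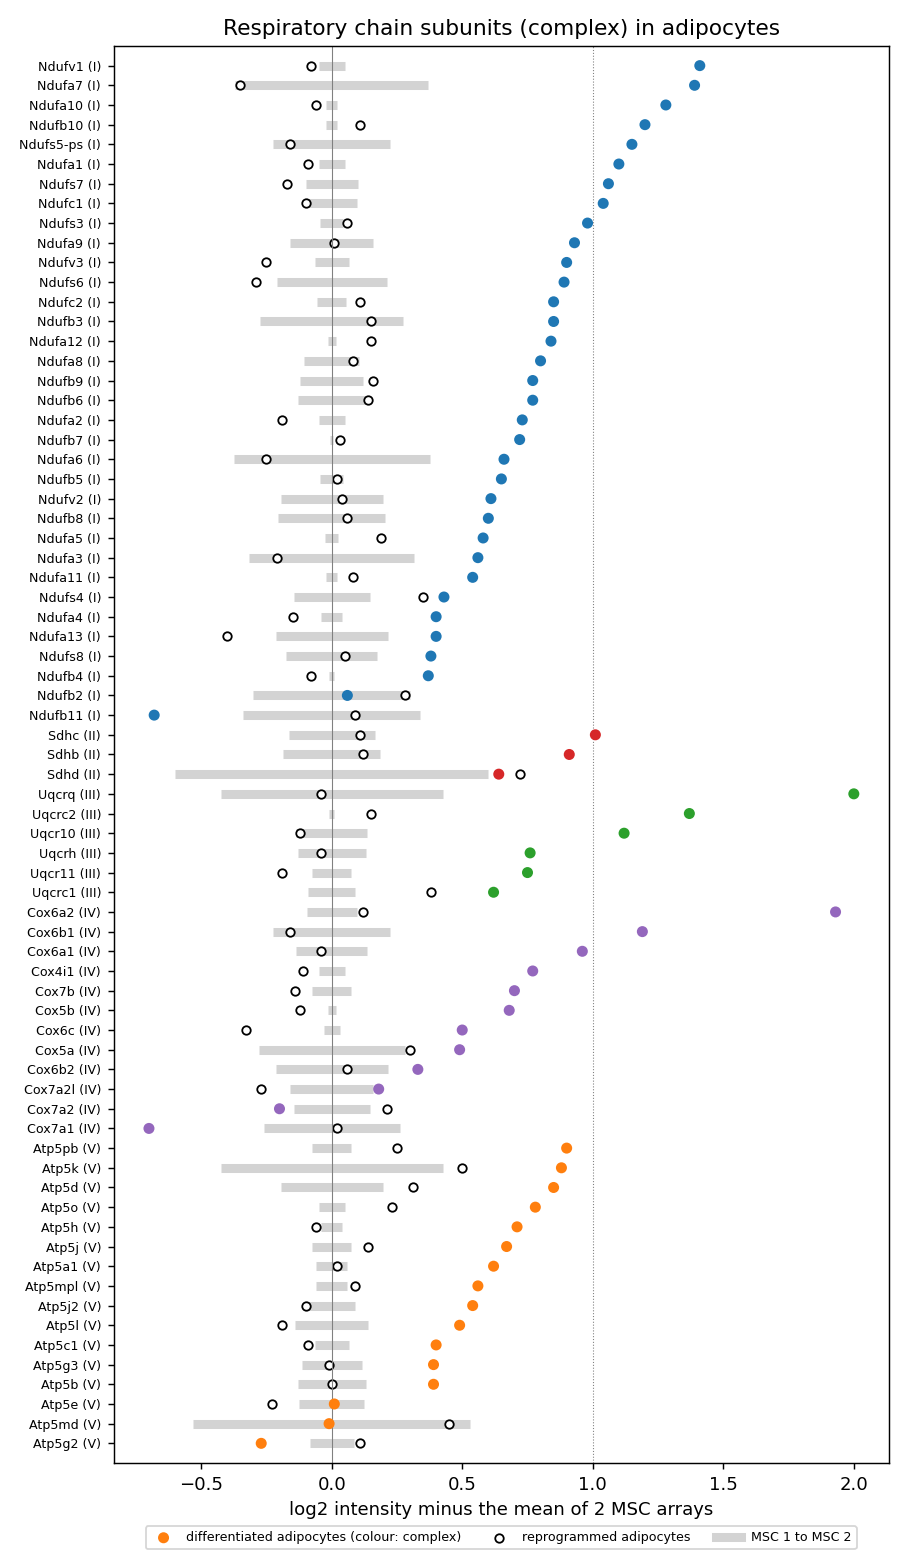
Log2 difference from the mean of 2 MSC arrays (horizontal axis) for each of 71 members (vertical axis, complex in brackets) in differentiated adipocytes (filled, coloured by complex) and reprogrammed adipocytes (open), with grey bars from MSC 1 to MSC 2 and a dotted line at 2-fold. Differentiated adipocytes reach 2.00 for Uqcrq, and reprogrammed adipocytes stay between -0.40 and 0.72.

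A limma fit over the 3 culture pairs, reprogrammed minus differentiated with lineage as a block, tested for a shift shared by the lineages. It called 49 of 17728 probes (0.276%) and 0 of 70 members tested at a Benjamini-Hochberg adjusted p under 0.05. An unadjusted p under 0.05 was found for 19.7% of all probes tested and for 2 of the members. These were Uqcrq at -1.07 ± 0.43 (SE, 3 pairs, limma adjusted p = 0.25) and Cox6a2, the muscle isoform. Cox6a2 entered this fit through differentiated adipocytes and differentiated chondrocytes alone and was not detected on the other 4 arrays, so its fitted difference is read against background and nothing is drawn from its p. Next on the lower side, none past the test, were Cox6b1 (-0.83), Ndufb10 (-0.77) and Ndufa7 (-0.75). On the higher side stood Ndufb11 (0.91), Atp5md (0.84), a small subunit of ATP synthase, Sdhd (0.72), Cox7a2 (0.62) and Uqcrc1 (0.53). The median over the members was -0.18, and it was 0.09 without the adipocyte pair, so the sign of the median rested on that pair. For Ndufb10 the other probe differed in the osteocyte pair, by 2.0. The lists of assembly factors, electron carriers, tricarboxylic acid cycle, fatty acid oxidation, import and mitochondrial ribosomal genes also had 0 genes called by limma.

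Differentiated populations against MSC were tested with limma over 8 arrays. The test called 3 of 18131 probes (0.0165%) and 0 of 70 members. Of the members 0 had an unadjusted p under 0.05, against 8.67% of all probes tested. The smallest limma adjusted p among members was 0.59, for Ndufb10 at 0.75 ± 0.34 (SE, 3 arrays against 2). The highest members were Cox6a2, which was not detected in MSC and has no fitted size there, Uqcrq (0.84), Ndufb10, Uqcrc2 (0.68) and Cox6b1 (0.63), and the lowest were Cox7a2 (-0.61), Ndufa4 (-0.53), Atp5md (-0.46), Atp5a1 (-0.35) and Cox7b (-0.31). The median was 0.16 with the adipocyte array and -0.06 without the adipocyte arrays.

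Reprogrammed populations against MSC in the same fit gave 0 of 18131 probes (0.0%), 72 with an unadjusted p under 0.05, and 0 of 70 members by limma at either threshold. The highest members were Sdhd (0.67), Ndufb11 (0.63), Atp5md (0.38), Atp5d (0.36), the delta subunit of ATP synthase, and Uqcrc1 (0.32). The lowest were Ndufa13 (-0.40), Ndufc1 (-0.31), Ndufs6 (-0.24), Uqcrq (-0.23) and Ndufv1 (-0.22). The spread of this fit holds lineages that differ from each other, so the absence of calls does not show that levels were alike.

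On the differentiated chondrocyte and in vivo osteocyte arrays some isoforms of complex IV read high. Cox6a2 and Cox6b2 were each detected on 3 arrays, including both of these, and became members only through those. Their standing higher there, here and in the comparisons below, is thus partly fixed by the rule for members. Cox6a2, the isoform known from heart and skeletal muscle, read 9.44 in differentiated chondrocytes, 8.14 in osteocytes derived in vivo and 6.61 in differentiated adipocytes. It was not detected on the other 7 arrays, where it read 4.50 to 4.94. It was at least 15.1-fold higher than MSC in differentiated chondrocytes, at least 6.11-fold in in vivo osteocytes and at least 2.11-fold in differentiated adipocytes. Cox6b2, known from testis, read 7.15 in differentiated chondrocytes, 7.35 in in vivo osteocytes and 6.17 in treated in vivo osteocytes, and it was not detected elsewhere (4.55 to 5.09). Cox7a1 read 7.82 in in vivo osteocytes and 6.95 in differentiated chondrocytes, against 6.29 and 5.77 in MSC, and the other detected values were 5.64 to 6.05.

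The widely expressed partners differed from each other. Cox6b1, the partner of Cox6b2, read 13.0 in differentiated chondrocytes and 13.05 in in vivo osteocytes, against 12.71 and 12.26 in MSC, so it lay above both MSC arrays there. Cox6a1 had its lowest value of 10 arrays, 12.75, in differentiated chondrocytes, where Cox6a2 was highest. Cox7a2 read 10.00 in in vivo osteocytes and 9.43 in differentiated chondrocytes, against 10.18 and 10.47 in MSC. Cox7a2l, a factor of respiratory supercomplexes, read 11.05 in in vivo osteocytes, its lowest value, and 12.13 in differentiated chondrocytes, against 11.86 and 11.54 in MSC. The isoforms Cox4i2, Cox7b2, Cox8b and Cox8c were below detection on every array, as were the core subunits Ndufs1 and Uqcrfs1. A probe below detection, as for these genes and Sdha, does not show that the gene was not expressed.

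Beside these values, the arrays with Cox6a2 above 8 were the 2 with all 16 macrophage markers. Of 15 striated muscle markers, 1 was detected in differentiated chondrocytes (Tnni2) and 2 in in vivo osteocytes (Acta1 and Tnni2), against 0 to 4 on the other arrays. The erythroid markers were at 0 detected of 5 on all arrays. Osteoclast markers were at 3 of 8 on each of these 2 arrays, against 1 or 2 elsewhere. The part of other cells in the isoform levels was not tested.

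**Figure D4:**
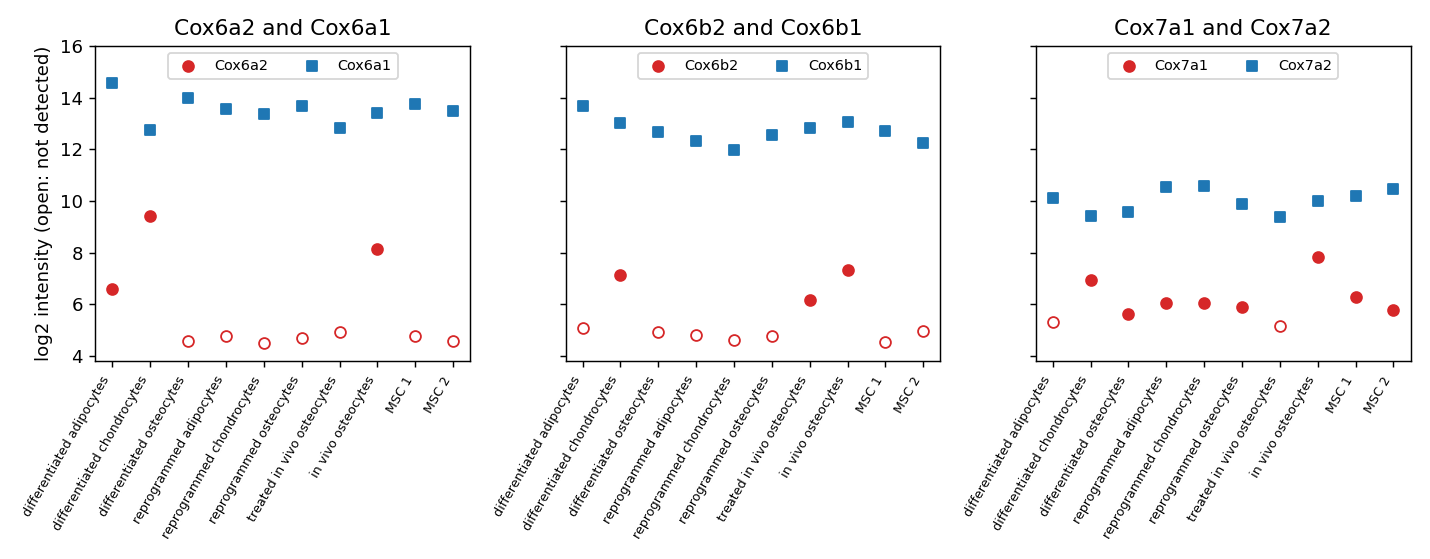
Log2 intensity (vertical axis) of 3 pairs of complex IV isoforms on each of 10 arrays (horizontal axis), with the tissue isoform as circles, the widely expressed isoform as squares, and open symbols where the probe was not detected. Cox6a2 reaches 9.44 in differentiated chondrocytes and 8.14 in in vivo osteocytes; probe levels are not comparable between genes.

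Over all members the medians on those 2 arrays lay near 0. In differentiated chondrocytes the median over the members was -0.04 against MSC, with -0.12 over all detected genes. At 2-fold, 2 members were higher and 5 lower, against 12.3% and 9.44% of all detected genes. Besides Cox6a2 and Cox6b2, the members past 2-fold were all lower. Cox7b, a small complex IV subunit, read 9.04, against 10.43 and 10.58 in MSC. Ndufa4, named for complex I and known as a subunit of complex IV, read 12.40, against 13.80 and 13.88. Atp5a1, the alpha subunit of ATP synthase, read 11.31, its lowest value, against 12.58 and 12.70. Ndufa9 and Ndufa12, accessory subunits of complex I, had -1.19 and -1.17.

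Per complex the ends in differentiated chondrocytes were Ndufa4 (-1.44) and Ndufa3 (0.93) in complex I, Sdhd (0.18) and Sdhb (0.46) in complex II, and Uqcrc1 (-0.76) and Uqcrc2 (0.57) in complex III. In ATP synthase they were Atp5a1 (-1.34) and Atp5g2 (0.33), and 14 of 16 of its members lay below the MSC mean. Tricarboxylic acid cycle and fatty acid oxidation genes had medians of -0.53 and -0.52 in differentiated chondrocytes, and -0.53 and -0.55 in in vivo osteocytes. Pparg (-2.35) and Twnk (-1.05), the mitochondrial DNA helicase, were past 2-fold lower in differentiated chondrocytes. In in vivo osteocytes Pparg (-2.41), Gabpa (-1.26), an ETS factor, Twnk (-1.19) and Tfam were past 2-fold lower.

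Reprogrammed chondrocytes against differentiated chondrocytes had a median of 0.06 over the members and 0.08 over all detected genes. At 2-fold, 6 members were higher and 4 lower, against 16.7% and 18.1% of all detected genes. Atp5a1 read 13.15 in reprogrammed chondrocytes, against 11.31 in differentiated chondrocytes, and Cox7b read 10.73, against 9.04. Ndufa4, Atp5md, Cox7a2 and Ndufa12 lay 1.26, 1.16, 1.15 and 1.03 higher. On the lower side Cox6a2 was not detected in reprogrammed chondrocytes, at least 17-fold lower, and Cox6b2 was at least 3.46-fold lower. Ndufa3 read 10.88 in reprogrammed chondrocytes, against 12.5 in differentiated chondrocytes, and Cox6b1 read 11.97, against 13.00. The regulators Pparg, Tfb1m and Gabpb1 lay 2.86, 1.15 and 1.10 higher, and Ppargc1b and Nrip1 were at least 3.15-fold and at least 1.62-fold lower. All 16 macrophage markers were past 2-fold lower in the same pair, and their part was not tested. Against MSC, reprogrammed chondrocytes had a median of -0.03 and 0 members past 2-fold, against 0.317% of all detected genes higher and 0.608% lower, with a range from -0.69 (Ndufa3) to 0.91 (Ndufb11). The ends of complex IV were Cox6b1 (-0.52) and Cox7a2 (0.25), and those of ATP synthase were Atp5j (-0.26), a coupling factor, and Atp5md (0.71).

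**Figure D5:**
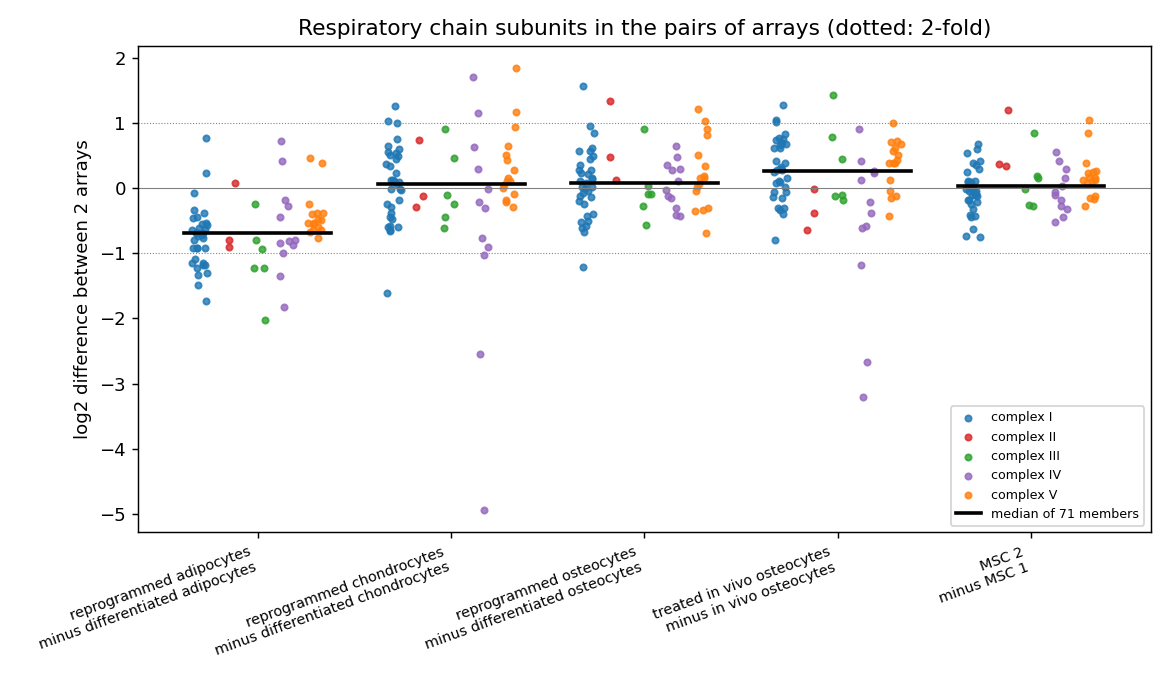
Log2 difference between the 2 arrays of each pair (vertical axis) for 71 members, with 1 point per gene coloured by complex, a bar at the median and dotted lines at 2-fold. The medians are -0.69, 0.06, 0.07 and 0.26 for the adipocyte, chondrocyte, osteocyte and in vivo pairs and 0.03 for MSC 2 minus MSC 1.

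Differentiated osteocytes had a median of -0.08 against MSC, with 0.01 over all detected genes, and 29 of 71 members lay above the MSC mean. This depended on the scaling, since with each array scaled to its 75th percentile the median was -0.23, against 0.11 over all genes, and 16 of 71 lay above. At 2-fold, 0 members were higher and 1 lower, against 4.22% and 2.49% of all detected genes. That member was Atp5k, subunit e of ATP synthase, which was not detected in differentiated osteocytes and read 6.74 and 7.59 in MSC, at least 3.08-fold lower. Sdhd read 9.14, its lowest value, against 9.50 and 10.70 in MSC, and Ndufb4, an accessory subunit of complex I, read 10.41, its highest value, against 9.95 and 9.93. The other ends were Ndufb9 (-0.79) in complex I, Sdhb (0.02) in complex II, Uqcrc1 (-0.47) and Uqcrh (0.11) in complex III, and Cox7a2 (-0.73) and Cox6a1 (0.37) in complex IV. In ATP synthase the highest was Atp5l (0.33), subunit g.

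Reprogrammed osteocytes against differentiated osteocytes had a median of 0.07, with -0.06 over all detected genes. At 2-fold, 4 members were higher and 1 lower, against 7.57% and 10.7% of all detected genes. Ndufb11 read 7.37 in reprogrammed osteocytes, against 5.79 in differentiated osteocytes. Sdhd read 10.47, against 9.14, and Atp5d read 12.73, against 11.53. Atp5k was detected in reprogrammed osteocytes, at 6.47, and was at least 1.91-fold higher there. Ndufb4 read 9.20, its lowest value, against 10.41. In complex III the ends were Uqcrq (-0.57) and Uqcrc1 (0.91), and in complex IV they were Cox4i1 (-0.43) and Cox6c (0.65), a small subunit. Atp5l was lowest in ATP synthase, at -0.69. With 75th percentile scaling the median over the members was -0.23 and that over all genes -0.28. Against MSC, reprogrammed osteocytes had a median of -0.09, from Ndufb4 (-0.74) to Ndufb11 (0.89), with 0 members past 2-fold, against 0.96% of all detected genes higher and 0.446% lower. With 75th percentile scaling that median was -0.46, against -0.17 over all genes, and 8 of 71 members lay above the MSC mean.

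Osteocytes derived in vivo had a median of -0.09 against MSC, equal to that over all detected genes. At 2-fold, 3 members were higher and 2 lower, against 11.6% and 7.38% of all detected genes. The higher ones were the isoforms Cox6a2, Cox6b2 (at least 3.52-fold) and Cox7a1 (1.79). The lower ones were Atp5a1, which read 11.37, against 12.58 and 12.70 in MSC, and Cox7b, which read 9.32, against 10.43 and 10.58. All 3 complex II members lay above the MSC mean, with 0.67 for Sdhb, 0.65 for Sdhc and 0.38 for Sdhd, and Sdhd lay below MSC 2. For Sdhb the probes disagreed, since the other 2 had 0.94 and -0.82. The other ends were Ndufa4 (-0.95) and Ndufa3 (0.79) in complex I, Uqcrq (-0.82) and Uqcrc2 (0.36) in complex III, and Atp5h (0.28), subunit d, at the top of ATP synthase.

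Against differentiated osteocytes, in vivo osteocytes had a median of 0.12, with 7 members past 2-fold higher and 1 lower, against 16.3% and 15.1% of all detected genes. Besides the 3 isoforms and Atp5k (at least 2.93-fold), the higher ones were Sdhd (1.35), Ndufb3 (1.03), an accessory subunit of complex I, and Sdhc (1.02). Cox7b was the lower one, at -1.02. The differentiated osteocyte array had the other deposited scale.

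Treated in vivo osteocytes were set against untreated in vivo osteocytes, 1 array each. The median over the members was 0.26, with 0.02 over all detected genes, and 45 of 71 lay higher. By complex it was 0.29 for complex I, -0.38 for complex II, 0.17 for complex III, -0.30 for complex IV and 0.41 for complex V. At 2-fold, 4 members were higher and 3 lower, against 13.0% and 16.1% of all detected genes. At 1.5-fold, 20 were higher and 6 lower, against 24.4% and 23.9%. The share higher at 1.5-fold lay near that of all genes, and the share lower, like both shares at 2-fold, lay below it.

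Uqcrq read 8.07 in treated in vivo osteocytes, against 6.64 in in vivo osteocytes. Ndufb9, an accessory subunit of complex I, read 11.56, against 10.30, and Ndufv1 read 12.38, against 11.36. Ndufb11 lay 1.04 higher. All members past 2-fold lower were isoforms of complex IV. Of these, Cox6a2 and Cox6b2 became members through arrays that include in vivo osteocytes, so their fall is partly fixed by that rule. Cox6a2 and Cox7a1 were not detected in treated in vivo osteocytes, at least 6.65-fold and at least 5.30-fold lower, and Cox6b2 read 6.17, against 7.35. Sdhb was the lowest of complex II, with 10.32 in treated in vivo osteocytes, against 10.96 in in vivo osteocytes. Ndufs5-ps (-0.80) and Uqcr10 (-0.19) were the lowest of complexes I and III, and Cox7a2l (0.90) was the highest of complex IV. In ATP synthase the ends were Atp5mpl (-0.43), a small subunit, and Atp5md (0.99).

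In the same pair, mitochondrial ribosomal proteins had a median of 0.49, with 13 of 74 past 2-fold higher and 0 lower, led by Mrps12 (1.86). Tfam, which packages mitochondrial DNA, lay 1.34 higher, and Pprc1, a coactivator of respiratory genes, lay 1.01 higher. Tfam had lain below both MSC arrays in in vivo osteocytes, at -1.15. The regulators past 2-fold lower were Pparg (-2.05) and Ppargc1b, which was not detected in treated in vivo osteocytes (at least 2.13-fold). The 16 macrophage markers were all past 2-fold lower, with a median of -8.18, and for 18 genes of the cell cycle it was 2.33. The part of these in the members' difference was not tested.

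Against MSC, treated in vivo osteocytes had a median of 0.10, with 4 members past 2-fold higher and 0 lower, against 6.5% and 6.48% of all detected genes. Ndufb10 read 11.36 in treated in vivo osteocytes, its highest value, against 9.91 and 9.95 in MSC. Uqcrc2 read 12.78, against 11.64 and 11.62, and Ndufa11, an accessory subunit of complex I, read 11.79, against 10.76 and 10.72. Cox6b2 was at least 1.56-fold higher. In ATP synthase the ends were Atp5e (-0.76), the epsilon subunit, and Atp5g2 (0.72). The lowest member was Cox7a2, with 9.39, against 10.18 and 10.47 in MSC. Of 16 macrophage markers, 3 were past 2-fold higher and 1 lower than MSC on this array, with a median of -0.01. The highest against MSC was Lyz1, at 10.73, against 8.46 and 6.17. The part of such cells in the members' values was not tested.

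The inhibitor of ATP synthase, Atpif1, is no subunit by the rule and was read as a member of the isoform list. It read 12.12 in differentiated adipocytes, its lowest value, against 13.13 and 12.95 in MSC, and 13.96 in in vivo osteocytes, its highest. Subunits encoded in mitochondrial DNA were not analysed here.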

How the data were processed

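Total RNA of 10 samples had been labelled as biotinylated cRNA for Illumina arrays, per the labels' protocols. The deposited scanner table holds, per the file headers, 45281 probes with a bead intensity and a detection p-value each. The sources used here do not say how the authors made them. The deposited series value table holds log2 values for the osteocyte pair and linear ones otherwise. By probe ID its linear columns had Spearman rho of -0.00745 to -0.00155 with the scanner table, so its lines were tied to probes by rank and served as an alternative.

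Background was corrected by normexp from the detection p-values with an offset of 16, followed by quantile normalisation and log2 (neqc, limma 3.58.1, R 4.3.3). Symbols came from GEO's platform table, which gave 34885 probes 1 symbol, 18 probes several and 10378 no symbol. Probes detected on at least 2 arrays of a fit were tested with lmFit and eBayes, and p-values were adjusted by Benjamini-Hochberg over all probes. The tests had 2 residual degrees of freedom (lineage block) and 5 (against MSC), and were tried on simulated data. Single populations were counted at 2-fold from both MSC arrays, and the higher value had to be detected. Folds given as "at least" replace an undetected lower value by the lowest detected value on its array, or keep it where it was higher.

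Members and lists were chosen with earlier results of these data known. Named members are the 5 largest in each direction per fit, the ends of each complex and all past 2-fold per single comparison, the tissue isoforms and Sdh subunits. To these come regulators past 2-fold in most comparisons and up to 3 genes of each other list. Nrf1 and Ppargc1a, Yy1 and Gabpa in differentiated adipocytes against MSC, and some members within 2-fold were named after their values were seen. Alternatives were other background corrections, scalings, filters and probe choices, the value table, 1.5-fold, and leaving out arrays.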

Additional observations from a re-analysis of the deposited data

Results flagged for a closer look

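In treated in vivo osteocytes against in vivo osteocytes, Uqcrq lay 1.43 higher and Ndufv1 1.02 higher on the log2 scale. In reprogrammed adipocytes against differentiated adipocytes the same genes had -2.03 and -1.49. They were flagged because both pairs passed 2-fold in opposite directions. Of all detected genes 13.0% were 2-fold or more higher in the in vivo pair and 15.1% lower in the adipocyte pair. The share of genes doing both was not computed, so nothing is drawn from this overlap about the members. Each pair is 1 array against 1 array, and the difference between the pairs was not tested.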

How the results depend on the processing

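Of 178 recomputed medians and test counts, 170 kept their value within the spread between replicates (counts within 1.5 times), 6 moved and 2 reversed. A change of sign counted as reversed only where the main median reached that spread, 0.16, so medians near 0 could change sign without being counted. Counts of members past a test were 0 in every run and are among those kept. Of 1139 other recomputed values, 213 moved and 7 reversed. The 2 counted as reversed were the median of reprogrammed minus differentiated, 0.09 without the adipocyte pair (-0.36 without the chondrocyte pair), and that of differentiated minus MSC, -0.06 without the adipocyte arrays. With 75th percentile scaling the median was -0.46 for reprogrammed osteocytes against MSC (all genes -0.17). It was -0.23 for reprogrammed against differentiated osteocytes (-0.28), where the main median was 0.07. Cyclic loess gave 0.17 for differentiated chondrocytes and 0.09 for in vivo osteocytes against MSC, and -0.18 for reprogrammed against differentiated chondrocytes. Each of these had the other sign than its main median. The cause was not tested. The median of differentiated adipocytes against MSC kept its sign, from 0.66 to 0.86, and the members past 2-fold higher numbered 7 to 9, but 14 by cyclic loess or against MSC 1 alone and 18 against MSC 2 alone (1 lower). Reprogrammed against differentiated adipocytes ran from -0.85 to -0.64, with 14 to 16 members past 2-fold lower, but 25 by cyclic loess. Shares of all genes under these settings are not given here, so the changed counts are not read as a result about the members. Counting against 1 MSC array alone is also a looser rule for every gene. Treated against untreated in vivo osteocytes ran from 0.11 to 0.29.

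No member passed a test under any alternative run. Over all probes, reprogrammed minus differentiated called 49 probes. It called 0 with either other background correction, without the detection filter, on means over detected probes or with the in vivo pair added, and 9 by cyclic loess (0 higher, 9 lower), 26 from the value table (7 higher, 19 lower) and 62 by 75th percentile scaling (23 higher, 39 lower), against 24 higher and 25 lower. It called 344 without the lineage block, 211 without the adipocyte pair and 330 without the osteocyte pair. Differentiated minus MSC called 3 probes, but 0 without either MSC replicate or without the chondrocyte arrays, 1 without the osteocyte arrays or the detection filter and 11 without the adipocyte arrays.

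Single members with low differences reversed. In differentiated minus MSC, Atp5md had -0.99 without MSC replicate 1 and 0.06 without MSC replicate 2, Atp5a1 0.04 on the mean over detected probes and 0.14 without the chondrocyte arrays, and Cox7b 0.27 without the chondrocyte arrays. In reprogrammed minus MSC, Ndufs6 had 0.03 on the mean over detected probes, Uqcrq -0.66 without MSC replicate 1 and 0.19 without MSC replicate 2, and Atp5md -0.15 and 0.9 without them. The fit over the culture pairs was paired by lineage, and replicate numbers were not used for pairing because the MSC samples alone carry them. Single arrays, dim probes and the other scale of the osteocyte pair limit what these values show.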
